A study of Mus musculus with 28 samples.

Results

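Mural cells and endothelial cells were compared as sorted from non-tumor mouse brain, with 5 libraries of the PDGFRb sort against 5 libraries of the CD31 sort. These are 10 of the 28 libraries of the series, which also holds both sorts from brain metastases; members were chosen by the sort and the non-tumor condition given in each library's title. The PDGFRb sort held tdTomato-positive cells, in which a Cre recombinase driven by Pdgfrb regulatory sequence had switched on the reporter, and the CD31 sort held cells stained for CD31, the product of Pecam1. All mice of both groups were PDGFRβ-CreERT2; Rosa-tdTomato animals given 2 mg of tamoxifen a day for 5 days, and cells positive for CD45, CD11B or EPCAM were gated out before either sort. The non-tumor animals are labelled healthy; strain background, age and sex are not given in the sources used here, nor is whether these mice had received an injection. Each of 5 mice (53680, 54132, 54135, 56727 and 56740) gave 1 library of each sort, and values listed for 5 libraries run in that order of mice. The reporter marks any cell that expressed Pdgfrb when tamoxifen was given, so the PDGFRb sort can hold pericytes, smooth muscle cells and perivascular fibroblasts together.

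The wall of a brain vessel is built by endothelial cells, which line the lumen and form the blood-brain barrier, and by mural cells, which wrap the endothelial tube: pericytes on capillaries and smooth muscle cells on arterioles. Both cell types share a basement membrane. Endothelial cells carry the transporters that move glucose, amino acids and vitamins into the brain and the pumps that keep drugs out, while mural cells contract, deposit matrix and answer to signals such as platelet-derived growth factor B, which endothelial cells release and which holds pericytes on the vessel.

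Library totals ran between 14890688 and 22469842 counts in the PDGFRb sort and between 17038992 and 20804070 counts in the CD31 sort. Pdgfrb had 1182, 876, 916, 1523 and 1538 CPM in the PDGFRb sort, against 1.68, 1.05, 0.228, 0 and 1.78 CPM in the CD31 sort. Pecam1 had 2.88, 0.316, 4.29, 12 and 6.2 CPM in the PDGFRb sort, against 1436, 1392, 1369, 1444 and 1378 CPM in the CD31 sort. Levels in CPM are counts scaled to a common library size with TMM factors. Both genes separated the sorts in all 5 mice as the titles name them; they were used by the gate, so their differences are a description and support nothing. For mouse 54135 the cell type label names the opposite sort to the title, and the titles were followed; with the cell type label in place of the title edgeR called 0 genes, with 1666 genes at an unadjusted p under 0.05, and limma-voom also called 0. In bulk libraries, fewer cells of a type and less RNA per cell cannot be told apart.

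Marker genes of other cell types were present in the PDGFRb sort in amounts that differed between libraries. The summed level of 12 pericyte markers ran from 15183 to 26334 CPM in the PDGFRb sort, against 16.1 to 46.5 CPM in the CD31 sort. The 10 smooth muscle markers summed to 4893 to 24763 CPM in the PDGFRb sort, against 122 to 256 CPM in the CD31 sort. The 12 perivascular fibroblast markers summed to 976 to 2633 CPM in the PDGFRb sort, against 3.67 to 7.26 CPM in the CD31 sort, where Lum, Slc22a6, Aldh1a2 and Efemp1 had no count. The 12 endothelial markers summed to 770 to 1203 CPM in the PDGFRb sort and to 24496 to 25321 CPM in the CD31 sort; Esam made up most of the sum in the PDGFRb sort, at a mean of 840.5 CPM. Astrocyte markers (10 genes) summed to 336, 938, 4190, 2280 and 3242 CPM in the PDGFRb sort, against 122 to 201 CPM in the CD31 sort, so that the PDGFRb libraries of mice 54135, 56727 and 56740 stood above the other 2. Neuron markers (12 genes) ran from 3.74 CPM to 1262 CPM in the PDGFRb sort, highest in mouse 54135, against 51.7 to 88.7 CPM in the CD31 sort; Slc17a7 had no count in any PDGFRb library, and Slc17a7, Gad2, Slc32a1 and Dlx2 had none in any CD31 library. Globin and other erythroid genes (5 genes) summed to less in the PDGFRb sort, 1.43 to 25.1 CPM in the PDGFRb sort, against 60.3 to 925 CPM in the CD31 sort. Oligodendrocyte lineage markers (10 genes) summed to 44.6 to 336 CPM in the PDGFRb sort, against 35.7 to 68.1 CPM in the CD31 sort. Microglia and macrophage markers (12 genes) summed to 16.6 to 91.2 CPM in the PDGFRb sort, against 2.84 to 12.8 CPM in the CD31 sort. Ependymal and choroid plexus markers (8 genes) summed to 573 to 1487 CPM in the PDGFRb sort, against 5.46 to 171.5 CPM in the CD31 sort. Rarres2 and Ttr made up most of that sum in the PDGFRb sort, at means of 441 and 419 CPM, and each of the other 6 averaged below 20 CPM. In the deposited FPKM of the CD31 sort, a level per length, Stmn2 led the neuron markers at 31.9, ahead of Gad1 at 1.36. The log2 difference of Stmn2 was 0.08. Gja1 led the astrocyte markers there at 44.9 FPKM, ahead of Aldoc at 4.03. Synpo2 was highest of the smooth muscle markers there at 21.8 FPKM, beside Acta2 at 11.1, with a log2 difference of -0.69. Epithelial markers (8 genes) summed to 5.42 to 65.5 CPM in the PDGFRb sort, against 0.117 to 7.40 CPM in the CD31 sort. The part of these cells in the results was not tested. Values without the 3 PDGFRb libraries high in astrocyte markers are given for many of the genes described, most of them in the last paragraph. They were given mainly where the log2 difference moved by more than 1.5-fold or the call changed.

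**Figure D1:**
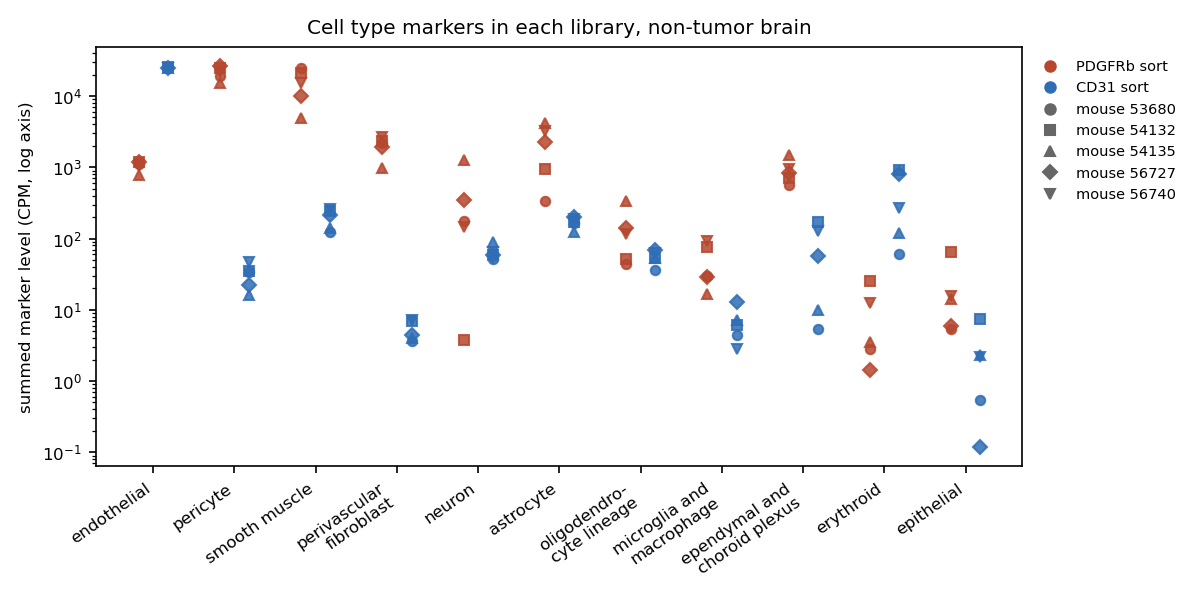
Summed level of each marker list (y axis, CPM, log scale) in each library of the PDGFRb sort (red, left in each column) and the CD31 sort (blue, right), with 1 symbol per mouse. Pericyte sums stand at 15183 CPM or more in every PDGFRb library and at 46.5 CPM or less in every CD31 library, and astrocyte sums in the PDGFRb sort spread from 336 to 4190 CPM.

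Of 14975 genes that passed the filter on low counts, edgeR called 4198 higher in the PDGFRb sort (28.0% of those tested) and 3439 higher in the CD31 sort (23.0%) at an adjusted p under 0.05. At least an 8-fold difference was called for 1872 genes higher in the PDGFRb sort (12.5%) and for 785 genes higher in the CD31 sort (5.24%). In a fit of all 6 groups of the series, which takes the spread of the metastasis libraries into the error, the counts were 2679 and 1667. The libraries of the 2 sorts did not overlap for 42.2% of the genes tested, in either direction, and the median log2 difference over them was 0.06. Against that background the gene families of the vessel wall were read by role. Members that pass the filter through 1 sort alone had to differ, so the counts below describe the families and test nothing about them.

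Receptors were divided between the sorts, with 89 of 181 tested receptor genes called higher in the PDGFRb sort and 65 called higher in the CD31 sort, of 278 on the lists; without Pdgfrb, a gene of the gate, the counts were 88 and 65 of 180. This compares with 28.0% and 23.0% of all genes tested, and family counts near these shares say nothing particular about the family. Ligands and their modulators leaned to the PDGFRb sort, with 92 against 43 of 163 tested, and matrix genes more so, with 131 against 24 of 185 tested. Transport genes gave 199 higher in the PDGFRb sort and 120 higher in the CD31 sort of 445 tested. Transcription factors gave 96 and 80 of 235 tested. At 8-fold or more the counts were 63 and 26 for receptors, 70 and 24 for ligands, 101 and 14 for matrix, 129 and 51 for transport, and 67 and 30 for transcription factors.

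**Figure D2:**
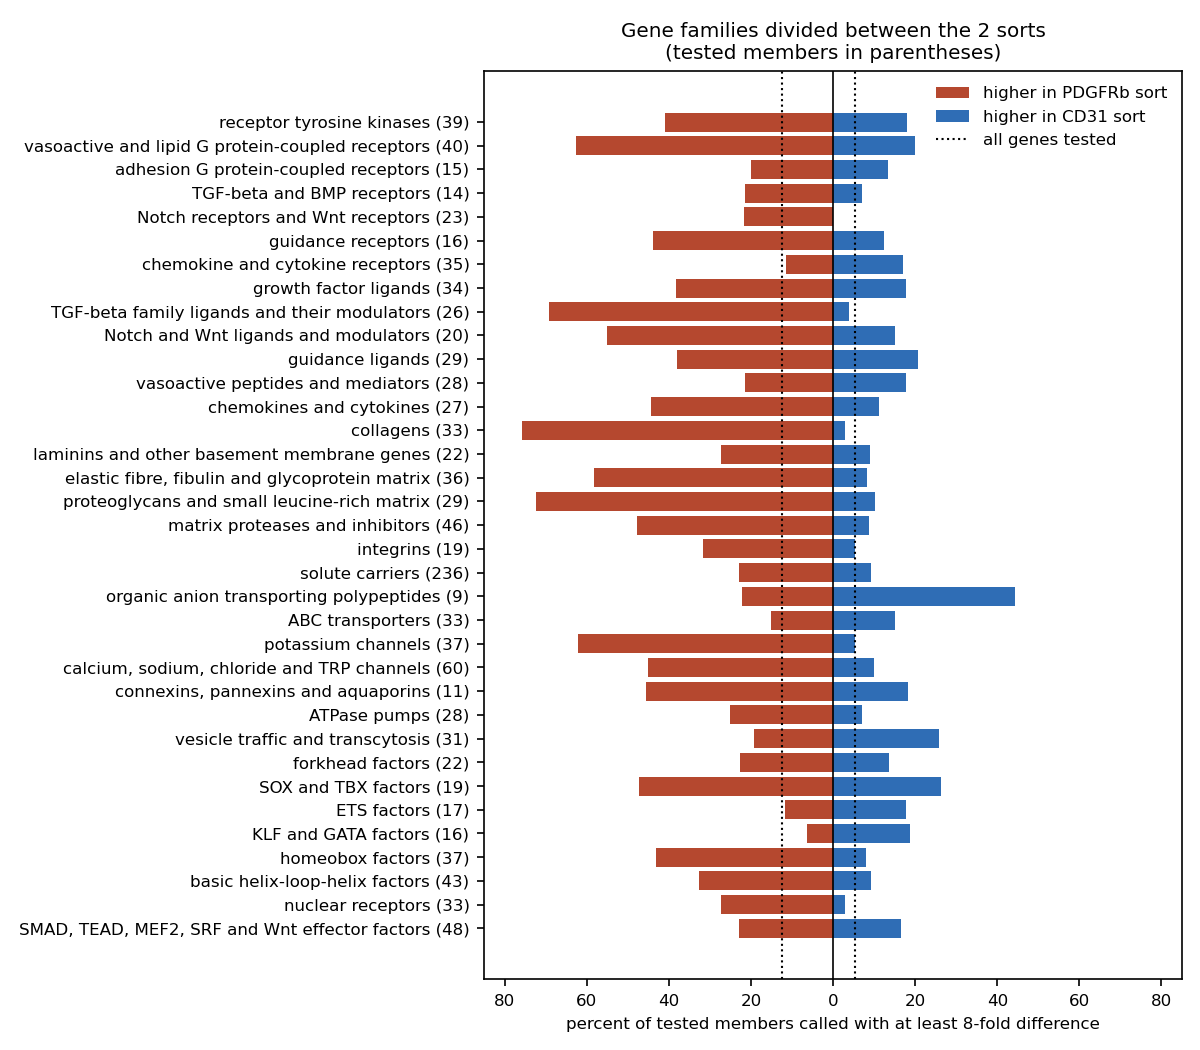
Percent of tested members of each gene family called with at least an 8-fold difference, higher in the PDGFRb sort (red, drawn to the left) or in the CD31 sort (blue, drawn to the right); dotted lines mark 12.5% and 5.24%, the shares over all 14975 genes tested. Collagens reach 75.8% on the PDGFRb side and organic anion transporting polypeptides 44.4% on the CD31 side.

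Receptor tyrosine kinases marked each sort with its own growth factor receptors. Of 39 tested, 24 were higher in the PDGFRb sort and 11 higher in the CD31 sort, or 23 and 11 of 38 without Pdgfrb. Kdr, the main signalling receptor for VEGF-A, had 7.06, 2.42, 15.0, 8.59 and 7.74 CPM in the PDGFRb sort, against 1645, 1794, 1493, 1696 and 1614 CPM in the CD31 sort. Kdr had a log2 difference of -7.66 ± 0.44 (edgeR adjusted p = 4.1e-08). Flt1, the receptor for VEGF-A, VEGF-B and placental growth factor, had 31.1, 39.7, 31.3, 75.0 and 52.5 CPM in the PDGFRb sort, against 4582, 4866, 4353, 4405 and 4434 CPM in the CD31 sort. Flt1 had a log2 difference of -6.62 ± 0.30 (edgeR adjusted p = 7.5e-09). Tek, which encodes the angiopoietin receptor TIE2, had 5.42, 12.4, 2.07, 8.22 and 16.1 CPM in the PDGFRb sort, against 1415, 1314, 1361, 1271 and 1461 CPM in the CD31 sort. Tek had a log2 difference of -7.26 ± 0.51 (edgeR adjusted p = 1.8e-07). No library of the PDGFRb sort came near the lowest CD31 library for any of these receptors. Per length, in the deposited FPKM of the CD31 sort, Flt1 led the kinases at 849 ± 61.0 FPKM (SD, n = 5), ahead of Tek at 307 ± 16.9, Kdr at 273 ± 21.2 and Tie1 at 264 ± 39.7, and Tek, Kdr and Tie1 did not differ beyond their spread. The insulin and IGF receptors were also higher in the CD31 sort, with a log2 difference of -1.62 ± 0.17 (edgeR adjusted p = 6.0e-06) for Insr and a log2 difference of -3.44 ± 0.18 (edgeR adjusted p = 2.2e-08) for Igf1r. Flt4, the VEGF-C receptor of lymphatic and some blood endothelium, had 0.76 ± 1.12 CPM in the PDGFRb sort, against 181 ± 24.0 CPM in the CD31 sort (edgeR adjusted p = 8.0e-06) (SD, n = 5 each, here and for all values written with ±, other than log2 differences, which carry SEs). Ret had 0.0249 ± 0.0558 CPM in the PDGFRb sort, against 24.5 ± 11.3 CPM in the CD31 sort (edgeR adjusted p = 2.3e-07).

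Axl, the receptor for Gas6 and protein S, had 1041, 992, 669, 1109.7 and 979.6 CPM in the PDGFRb sort, against 1.35, 2.03, 0.685, 1.93 and 3.65 CPM in the CD31 sort. Axl had a log2 difference of 8.94 ± 0.42 (edgeR adjusted p = 9.4e-09). In FPKM of the PDGFRb sort Axl stood at 311 ± 54.3 and Pdgfrb at 252 ± 68.6, which overlap. Ntrk3, the receptor for neurotrophin 3, was higher with a log2 difference of 7.92 ± 0.66 (edgeR adjusted p = 8.5e-07), and Fgfr1 with a log2 difference of 2.97 ± 0.23 (edgeR adjusted p = 4.4e-07). Egfr had 41.4 ± 8.06 CPM in the PDGFRb sort, against 0.161 ± 0.202 CPM in the CD31 sort (edgeR adjusted p = 2.7e-07). Ptk7, a receptor-like kinase of planar cell polarity, had 49.6 ± 6.08 CPM in the PDGFRb sort, against 0.0952 ± 0.105 CPM in the CD31 sort (edgeR adjusted p = 1.3e-08). Pdgfra, which in brain marks perivascular fibroblasts and oligodendrocyte precursors, had 98.3, 109.6, 38.0, 72.3 and 90.6 CPM in the PDGFRb sort, against 1.3, 2.47, 0.399, 3.22 and 2.74 CPM in the CD31 sort. Pdgfra had a log2 difference of 5.33 ± 0.48 (edgeR adjusted p = 1.6e-06), and it moved with the fibroblast marker list, which holds it. Epha2 did not pass the test, with 48.1 ± 12.6 CPM in the PDGFRb sort, against 43.5 ± 11.5 CPM in the CD31 sort (log2 difference 0.14 ± 0.22, edgeR adjusted p = 0.62).

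Receptors for vasoactive and lipid signals lay mostly on the mural side, with 28 of 40 tested higher in the PDGFRb sort and 10 higher in the CD31 sort. The 10 were 25% of those tested, near the 23.0% of all genes tested. Ednra, the endothelin receptor that contracts smooth muscle, had 373, 400.2, 249, 442 and 431 CPM in the PDGFRb sort, against 0.378, 0.74, 0.285, 0.527 and 1.52 CPM in the CD31 sort. Ednra had a log2 difference of 9.07 ± 0.41 (edgeR adjusted p = 7.5e-09), and every PDGFRb library was above 200 CPM while every CD31 library was below 2 CPM. P2ry14, the receptor for UDP-glucose, had a log2 difference of 9.78 ± 0.60 (edgeR adjusted p = 6.4e-08) and was the leading member per length in the PDGFRb sort at 583 ± 161 FPKM, beside S1pr3 at 437 ± 112 FPKM. S1pr3 had 1715 ± 439 CPM in the PDGFRb sort, against 1.78 ± 1.69 CPM in the CD31 sort (edgeR adjusted p = 2.8e-07). Npy1r, a receptor for the constrictor neuropeptide Y, had 194 ± 82.2 CPM in the PDGFRb sort, against 0.145 ± 0.223 CPM in the CD31 sort (edgeR adjusted p = 1.4e-07). Agtr1a, the angiotensin II receptor, had 9.21, 27.6, 3.37, 6.28 and 12.8 CPM in the PDGFRb sort and no count in the CD31 sort, at least 347-fold higher against a floor of 3 counts over the group.

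On the endothelial side stood Calcrl, which forms the adrenomedullin and CGRP receptors, with a log2 difference of -3.07 ± 0.33 (edgeR adjusted p = 7.0e-06). Aplnr, the apelin receptor, had 0.688 ± 1.01 CPM in the PDGFRb sort, against 51.0 ± 11.5 CPM in the CD31 sort (edgeR adjusted p = 4.1e-05). S1pr1, whose product keeps endothelial junctions tight, had 32.1, 103, 626, 386 and 487 CPM in the PDGFRb sort, against 2612, 1440.4, 1654, 1925 and 1710.4 CPM in the CD31 sort. S1pr1 had a log2 difference of -2.52 ± 0.62 (edgeR adjusted p = 0.0047). Its level in the PDGFRb sort was highest in mice 54135, 56727 and 56740, the libraries with the highest astrocyte sums; the part of those cells in it was not tested. Of 15 tested adhesion G protein-coupled receptors 4 were higher in the PDGFRb sort (26.7%), near the 28.0% of all genes tested. In the CD31 sort 9 were higher (60%), against 23.0% of all genes tested. Adgrf5 had 47.1, 28.4, 40.8, 62.4 and 60.2 CPM in the PDGFRb sort, against 1928, 1473, 1719, 1781 and 1789.9 CPM in the CD31 sort. Adgrf5 had a log2 difference of -5.18 ± 0.24 (edgeR adjusted p = 8.9e-09). Adgrl4, an endothelial receptor also called ELTD1, had 4.67 ± 4.23 CPM in the PDGFRb sort, against 1694 ± 124 CPM in the CD31 sort (edgeR adjusted p = 1.5e-07). Adgrl1 ran the other way (log2 difference 2.91 ± 0.23, edgeR adjusted p = 4.6e-07).

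Of 14 tested receptors of the TGF-beta and BMP family 4 were higher in the PDGFRb sort (28.6%), near the 28.0% of all genes tested. In the CD31 sort 7 were higher (50%), against 23.0% of all genes tested. Acvrl1, the type I receptor ALK1, had 31.6, 36.4, 20.1, 28.0 and 34.3 CPM in the PDGFRb sort, against 1017, 758, 1087, 729 and 849.7 CPM in the CD31 sort. Acvrl1 had a log2 difference of -4.88 ± 0.21 (edgeR adjusted p = 5.7e-09). Its co-receptor endoglin, Eng, had a log2 difference of -2.88 ± 0.18 (edgeR adjusted p = 6.8e-08), and the type II receptors Tgfbr2 and Bmpr2 had a log2 difference of -2.60 ± 0.16 (edgeR adjusted p = 7.6e-08) and a log2 difference of -2.77 ± 0.13 (edgeR adjusted p = 1.0e-08). Bmpr1a, the type I receptor ALK3, had 102, 118, 67.4, 73.7 and 94.6 CPM in the PDGFRb sort, against 0.703, 1.11, 0.342, 0.469 and 0.152 CPM in the CD31 sort. Bmpr1a had a log2 difference of 7.37 ± 0.39 (edgeR adjusted p = 2.2e-08). Between the sorts, ALK1 and its partners were thus higher in the endothelial libraries and ALK3 in the mural libraries. Per length within the PDGFRb sort, Bmpr1a at 17.21 ± 3.07 FPKM and Acvrl1 at 16.02 ± 2.757 FPKM overlapped in level. Eng stood above both in that sort, at 86.63 ± 21.8 FPKM. Tgfbr1, the type I receptor ALK5, did not pass the test (log2 difference -0.16 ± 0.17, edgeR adjusted p = 0.45).

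Notch and Wnt receptors gave 11 higher in the PDGFRb sort and 7 higher in the CD31 sort of 23 tested. Notch3, the receptor mutated in the small vessel disease CADASIL in humans, had 909, 511, 543, 609.8 and 890.2 CPM in the PDGFRb sort, against 3.24, 0.925, 0.457, 0.645 and 4.77 CPM in the CD31 sort (edgeR adjusted p = 4.9e-07). Notch1 had 402, 446, 394, 449 and 426 CPM in the PDGFRb sort, against 422, 299, 418, 317 and 352 CPM in the CD31 sort, and the groups overlapped (log2 difference 0.23 ± 0.13, edgeR adjusted p = 0.17). Notch4 was higher in the CD31 sort (log2 difference -2.63 ± 0.20, edgeR adjusted p = 4.0e-07). Of the Norrin and Wnt7 receptor complex that maintains the barrier, Fzd4 had a log2 difference of -2.37 ± 0.28 (edgeR adjusted p = 1.8e-05) and Reck a log2 difference of -2.33 ± 0.16 (edgeR adjusted p = 1.7e-07), both higher in the CD31 sort. Other members of the complex differed less, with log2 differences of -0.41 for Adgra2, -0.73 for Lrp5, -0.89 for Lrp6 and -0.90 for Tspan12. Fzd7 had a log2 difference of 4.65 ± 0.39 and was higher in the PDGFRb sort (edgeR adjusted p = 9.7e-07). Under upper-quartile scaling Notch1 passed the threshold, at a log2 difference of 0.34 and an edgeR adjusted p of 0.041.

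Guidance receptors gave 9 and 6 of 16 tested. Robo4, a Roundabout receptor of endothelium, had 3.09 ± 3.358 CPM in the PDGFRb sort, against 599 ± 77.4 CPM in the CD31 sort (edgeR adjusted p = 6.9e-06). Nrp1, the co-receptor of VEGF and class 3 semaphorins, had a log2 difference of -2.55 ± 0.26 (edgeR adjusted p = 4.3e-06). Plxnb2, a receptor for class 4 semaphorins, had 320.4, 297, 359, 336 and 356 CPM in the PDGFRb sort, against 16.2, 18.5, 14.3, 22.1 and 24.5 CPM in the CD31 sort. Plxnb2 had a log2 difference of 4.13 ± 0.17 (edgeR adjusted p = 3.9e-09). Plxnb1, the semaphorin 4D receptor, was also higher in the PDGFRb sort, with a log2 difference of 4.72 ± 0.26 (edgeR adjusted p = 2.5e-08). Among 35 tested cytokine and chemokine receptors 9 were higher in the PDGFRb sort (25.7%), near the 28.0% of all genes tested, and 16 were higher in the CD31 sort, and 37 members had too few counts to be tested. Il2rg, the common gamma chain, had 1.96, 3.31, 10.7, 7.11 and 2.04 CPM in the PDGFRb sort, against 276, 270.0, 339, 302 and 285 CPM in the CD31 sort. Il2rg had a log2 difference of -5.87 ± 0.48 (edgeR adjusted p = 7.1e-07). Tnfrsf1b, the TNF receptor TNFR2, had a log2 difference of -5.67 ± 0.53 (edgeR adjusted p = 2.2e-06). Ackr3, a scavenger receptor for Cxcl12, was higher in the PDGFRb sort (log2 difference 1.22 ± 0.20, edgeR adjusted p = 2.2e-04).

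The upstream 250 bases of 4 of these receptor and channel genes are shown because the ETS factors Erg and Fli1, given with the transcription factors, also divided between the sorts. Sequences are from RefSeq (GRCm38.p6), 5′ to 3′ on the gene's strand and ending just before the annotated start; capitals mark GGAAGT or CAGGAA, 2 words built on the ETS core, or their complements ACTTCC and TTCCTG. Tek (chr4:94739039-94739288, plus strand) and Kdr (chr5:75978456-75978705, minus strand) stand for the CD31 sort, and Ednra (chr8:77724453-77724702, minus strand) and Abcc9 (chr6:142702275-142702524, minus strand) for the PDGFRb sort.
Tek: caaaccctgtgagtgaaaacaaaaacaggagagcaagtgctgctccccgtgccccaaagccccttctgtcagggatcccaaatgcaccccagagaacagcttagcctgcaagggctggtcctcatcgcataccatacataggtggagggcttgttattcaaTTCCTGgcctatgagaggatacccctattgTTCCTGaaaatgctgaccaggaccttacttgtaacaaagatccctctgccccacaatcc
Kdr: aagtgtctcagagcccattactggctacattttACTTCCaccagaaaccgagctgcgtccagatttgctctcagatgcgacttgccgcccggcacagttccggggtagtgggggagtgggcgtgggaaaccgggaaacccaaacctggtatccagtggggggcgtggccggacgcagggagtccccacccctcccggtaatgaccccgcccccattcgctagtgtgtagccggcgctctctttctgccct
Ednra: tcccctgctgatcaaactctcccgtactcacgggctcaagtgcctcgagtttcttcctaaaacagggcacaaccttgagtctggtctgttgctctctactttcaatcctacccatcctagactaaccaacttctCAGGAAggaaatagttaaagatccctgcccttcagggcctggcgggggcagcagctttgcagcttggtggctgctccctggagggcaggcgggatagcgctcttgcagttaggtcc
Abcc9: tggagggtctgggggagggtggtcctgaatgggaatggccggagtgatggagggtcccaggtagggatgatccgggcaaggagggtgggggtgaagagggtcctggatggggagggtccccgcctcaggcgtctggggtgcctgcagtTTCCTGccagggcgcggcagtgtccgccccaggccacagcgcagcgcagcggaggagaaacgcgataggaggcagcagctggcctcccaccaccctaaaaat
Either word was found in 9 of the 14 promoters listed for 9 endothelial marker genes (64.3%), in 4 of the 8 promoters of 8 pericyte marker genes, and in 38.6% of all 32851 promoters of the table. Tek held 2 matches and Kdr, Ednra and Abcc9 held 1 each. Among 4 further promoters searched, Tie1 held 2 matches, Flt1 and Rgs5 held 1 each, and the mural receptor gene Notch3 held none. A match describes these letters and is not a measured site.

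Among 34 tested growth factors 19 were higher in the PDGFRb sort and 12 higher in the CD31 sort, and among 26 tested TGF-beta family ligands and modulators 22 and 2. Il34, a ligand of the microglial receptor CSF1R, had 379, 366, 314.5, 370.3 and 369 CPM in the PDGFRb sort, against 0.216, 1.23, 0.285, 0.0586 and 0.965 CPM in the CD31 sort. Il34 had a log2 difference of 9.34 ± 0.50 (edgeR adjusted p = 2.3e-08). Igf2 had 137, 254, 125, 153 and 198 CPM in the PDGFRb sort, against 1.35, 2.47, 1.71, 0.82 and 1.57 CPM in the CD31 sort (log2 difference 6.77 ± 0.32, edgeR adjusted p = 9.2e-09); it is also on the fibroblast marker list. Pgf, placental growth factor, had a log2 difference of 5.60 ± 0.62 (edgeR adjusted p = 1.1e-05). Fgf2 had a log2 difference of 4.07 ± 0.55 (edgeR adjusted p = 5.2e-05). Angpt4 had 31.8, 12.6, 4.72, 8.68 and 9.73 CPM in the PDGFRb sort and no count in the CD31 sort, at least 367-fold higher.

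Egfl7, an angiogenic factor of endothelium, had 4.38, 1.89, 1.93, 5.22 and 7.44 CPM in the PDGFRb sort, against 972, 752, 1024, 711 and 984 CPM in the CD31 sort. Egfl7 had a log2 difference of -7.73 ± 0.43 (edgeR adjusted p = 3.2e-08). Kitl, stem cell factor, had a log2 difference of -4.0 ± 0.22 (edgeR adjusted p = 2.8e-08). Vegfc had a log2 difference of -4.40 ± 0.55 (edgeR adjusted p = 2.7e-05). Pdgfb had 23.0, 32.3, 20.3, 11.4 and 22.3 CPM in the PDGFRb sort, against 231, 309, 257, 283 and 305 CPM in the CD31 sort (log2 difference -3.66 ± 0.24, edgeR adjusted p = 1.2e-07), so this ligand and the receptor used for the gate were high in opposite sorts. Of the TGF-beta family, Bmp4 had 24.1, 60.3, 20.7, 51.7 and 36.3 CPM in the PDGFRb sort, against 0.756, 3.02, 2.17, 1.17 and 3.76 CPM in the CD31 sort. Bmp4 had a log2 difference of 4.14 ± 0.47 (edgeR adjusted p = 1.2e-05). Bmp6, another BMP, had a log2 difference of 2.69 ± 0.32 (edgeR adjusted p = 1.6e-05). Nodal had 111 ± 26.1 CPM in the PDGFRb sort, against 0.126 ± 0.192 CPM in the CD31 sort (edgeR adjusted p = 2.5e-08). Bmp5 had 45.2 ± 17.6 CPM in the PDGFRb sort, against 0.0586 ± 0.131 CPM in the CD31 sort (edgeR adjusted p = 2.3e-07). The 2 members on the endothelial side were Ltbp4, a latent TGF-beta binding protein, with a log2 difference of -4.07 ± 0.27 (edgeR adjusted p = 1.1e-07), and Tgfb2 with a log2 difference of -1.65 ± 0.23 (edgeR adjusted p = 6.3e-05). Tgfb1 did not pass the test (log2 difference -0.90 ± 0.44, edgeR adjusted p = 0.11), and it passed with an adjusted p of 0.027 without the PDGFRb library of mouse 54132.

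Notch ligands stood apart by member. Dll4 had 4.51, 4.63, 8.72, 6.70 and 5.41 CPM in the PDGFRb sort, against 192, 251, 196, 259 and 238 CPM in the CD31 sort. Dll4 had a log2 difference of -5.24 ± 0.22 (edgeR adjusted p = 3.9e-09). Jag2 had 2.74, 0.736, 3.52, 0.924 and 3.41 CPM in the PDGFRb sort, against 197, 151, 228, 135 and 154 CPM in the CD31 sort (log2 difference -6.25 ± 0.43, edgeR adjusted p = 1.8e-07), both higher in the CD31 sort in all mice. Jag1 had 114, 186, 66.5, 84.0 and 121 CPM in the PDGFRb sort, against 63.7, 57.7, 59.1, 55.7 and 67.9 CPM in the CD31 sort. Jag1 had a log2 difference of 0.91 ± 0.23 (edgeR adjusted p = 0.0056), and the lowest PDGFRb library lay below the highest CD31 library. Notum, a secreted Wnt deacylase and Wnt target, was higher in the CD31 sort (log2 difference -5.12 ± 0.28, edgeR adjusted p = 2.4e-08). Ndp, which encodes the FZD4 ligand Norrin, had 2.94, 19.0, 15.95, 16.7 and 21.0 CPM in the PDGFRb sort, against 0, 0.185, 0.342, 0.938 and 0.609 CPM in the CD31 sort. Ndp had a log2 difference of 5.17 ± 0.77 (edgeR adjusted p = 1.2e-04), with the PDGFRb library of mouse 53680 well below the other 4. In all, 14 of 20 tested Notch and Wnt ligands and modulators were higher in the PDGFRb sort and 5 higher in the CD31 sort. The 5 were 25% of those tested, near the 23.0% of all genes tested.

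Of 29 tested guidance ligands, 13 were higher in the PDGFRb sort and 7 higher in the CD31 sort. The 7 were 24.1% of those tested, near the 23.0% of all genes tested. Sema3c had 1.88 ± 2.30 CPM in the PDGFRb sort, against 433 ± 73.7 CPM in the CD31 sort (edgeR adjusted p = 7.3e-06). Sema7a, a membrane-anchored semaphorin, had a log2 difference of -7.53 ± 0.50 (edgeR adjusted p = 1.2e-07). Efna1, an ephrin, had a log2 difference of -4.17 ± 0.42 (edgeR adjusted p = 4.3e-06). Sema5a (log2 difference 4.05 ± 0.26, edgeR adjusted p = 9.6e-08) and Slit3 (log2 difference 3.93 ± 0.49, edgeR adjusted p = 2.8e-05) were higher in the PDGFRb sort.

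Vasoactive mediators were the ligand family with the most endothelial calls, 13 of 28 tested, against 9 higher in the PDGFRb sort. The 9 were 32.1% of those tested, near the 28.0% of all genes tested. Edn1, the constrictor endothelin 1, had 0.719, 0, 0, 1.20 and 1.58 CPM in the PDGFRb sort, against 165, 218, 114, 164 and 159 CPM in the CD31 sort (log2 difference -7.81 ± 0.70, edgeR adjusted p = 1.6e-06, and -8.40 without the PDGFRb library of mouse 56740). Nos3, endothelial nitric oxide synthase, had 3.79, 0.894, 3.90, 7.85 and 5.12 CPM in the PDGFRb sort, against 1009, 857, 1296, 759.5 and 758 CPM in the CD31 sort. Nos3 had a log2 difference of -7.75 ± 0.50 (edgeR adjusted p = 1.1e-07). In the mural libraries these genes were at or below 8 CPM. Ptgds, prostaglandin D2 synthase, had 1633, 2431, 389.9, 1174 and 1295 CPM in the PDGFRb sort, against 0.756, 6.35, 0.799, 5.04 and 7.82 CPM in the CD31 sort (log2 difference 8.38 ± 0.82, edgeR adjusted p = 3.4e-06).

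Chemokines and cytokines gave 16 higher in the PDGFRb sort and 4 higher in the CD31 sort of 27 tested, with 64 members below the filter. Cxcl12 had 263, 401, 180.4, 374 and 376 CPM in the PDGFRb sort, against 3078, 2412, 2631, 2203 and 2655 CPM in the CD31 sort. Cxcl12 had a log2 difference of -3.03 ± 0.23 (edgeR adjusted p = 4.3e-07). Cx3cl1, fractalkine, had a log2 difference of -3.89 ± 0.14 (edgeR adjusted p = 1.9e-09). Tnfsf10, the death ligand TRAIL, had 0.861 ± 1.54 CPM in the PDGFRb sort, against 139 ± 24.4 CPM in the CD31 sort (edgeR adjusted p = 3.5e-05). Il6 had 6.86, 17.4, 0.626, 6.51 and 5.07 CPM in the PDGFRb sort, against 0.919, 0, 0.114, 0 and 0.0508 CPM in the CD31 sort (edgeR adjusted p = 0.0028), and the lowest PDGFRb library lay below the highest CD31 library.

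Ligand and receptor genes were then set side by side as 47 pairs chosen for this report. Whether the products of each pair bind was not tested. In 10 pairs the ligand was called higher in the CD31 sort and the receptor in the PDGFRb sort, and in 11 the reverse held. The gate fixed the receptor call in 2 of the 10, Pdgfb and Pdgfd with Pdgfrb, which leaves 8 pairs without them. Both genes were higher in the CD31 sort in 7 pairs and in the PDGFRb sort in 7, and in the remaining 12 at least 1 gene was not called or not tested. Of the 80 tested genes of the pairs, 35 (43.8%) were called higher in the PDGFRb sort and 40 (50%) higher in the CD31 sort. The shares over all genes tested were 28.0% and 23.0%. Some genes stand in more than 1 pair, and no share over other pairs was computed. The pair counts thus describe the chosen pairs only. Among the 10 pairs were Pdgfb with Pdgfrb, Edn1 with Ednra, Jag2 with Notch3, Gas6 with Axl and Hbegf with Egfr. Gas6 had a log2 difference of -2.19 ± 0.31 (edgeR adjusted p = 7.7e-05). Hbegf, an EGF receptor ligand, had a log2 difference of -1.16 ± 0.22 (edgeR adjusted p = 8.8e-04). Among the 11 reverse pairs were Angpt1 with Tek, Pgf with Flt1, Igf2 with Igf1r and Bmp4 with Bmpr2. So were Bmp6 with Acvrl1, Ndp with Fzd4 and Slit3 with Robo4. These are RNA levels, and protein, binding and signalling were not measured. Igf2 is on the fibroblast marker list. Ndp was lowest in the PDGFRb library of mouse 53680, which also had the lowest astrocyte sum. Over the other mice Ndp did not follow those sums. Its log2 difference was 4.71 without the 3 PDGFRb libraries with the highest astrocyte sums, against 5.17 with all libraries. The part of fibroblasts and astrocytes in these levels was not tested. Angpt1, the activating TIE2 ligand, had 30.4, 19.4, 14.3, 34.8 and 23.5 CPM in the PDGFRb sort, against 0.594, 0.185, 0.913, 1.35 and 2.54 CPM in the CD31 sort. Angpt1 had a log2 difference of 4.43 ± 0.54 (edgeR adjusted p = 2.4e-05). Vegfa, whose receptor Kdr was high in the CD31 sort, had 16.5, 14.3, 32.5, 19.8 and 23.6 CPM in the PDGFRb sort, against 0.756, 0.37, 2.17, 1.41 and 1.07 CPM in the CD31 sort. Vegfa had a log2 difference of 4.20 ± 0.44 (edgeR adjusted p = 6.0e-06). It was highest in the 3 PDGFRb libraries with the highest astrocyte sums, and its log2 difference was 3.73 without them.

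Within the CD31 sort stood Vegfc with Flt4, Sema3c with Nrp1 and Efnb2 with Ephb4, and within the PDGFRb sort Pdgfc with Pdgfra, Ntf3 with Ntrk3 and Fgf2 with Fgfr1. Apln, the apelin precursor gene, had 1.90, 1.37, 20.6, 3.56 and 12.1 CPM in the PDGFRb sort, against 8.48, 5.67, 9.70, 5.74 and 8.22 CPM in the CD31 sort and did not pass the test (log2 difference 0.07 ± 0.64, edgeR adjusted p = 0.94). Its log2 difference was -0.67 without the PDGFRb library of mouse 54135 and -2.21 without the 3 PDGFRb libraries high in astrocyte markers (edgeR adjusted p = 0.0018). Csf1r, the receptor of Il34 and Csf1 and a microglial marker, did not pass the test (log2 difference 2.89 ± 1.23, edgeR adjusted p = 0.069). It passed without the PDGFRb library of mouse 54135, at an adjusted p of 0.022, and in DESeq2, at 0.028, and its log2 difference was 2.19 without the PDGFRb library of mouse 56740 and 3.5 without the CD31 library of mouse 56727. In the fit of all 6 groups Adm, Dll1, Edn3, Efnb2, Kit, Lifr, Ptn, Tgfbr3 and Wnt5a missed the threshold, with adjusted p of 0.46, 0.28, 0.10, 0.11, 0.071, 0.12, 0.12, 0.58 and 0.47 in that order. Adm also missed it without any 1 of 3 libraries, at 0.061 to 0.073, and without the 3 PDGFRb libraries high in astrocyte markers, at 0.056. Without those 3 libraries Lifr missed it too, at 0.15. Met, the hepatocyte growth factor receptor (edgeR adjusted p = 0.044), missed it with mouse as a block, at an adjusted p of 0.063, and without any 1 of 6 libraries, at 0.066 to 0.097, and at 0.19 without the 3 PDGFRb libraries high in astrocyte markers.

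**Figure D3:**
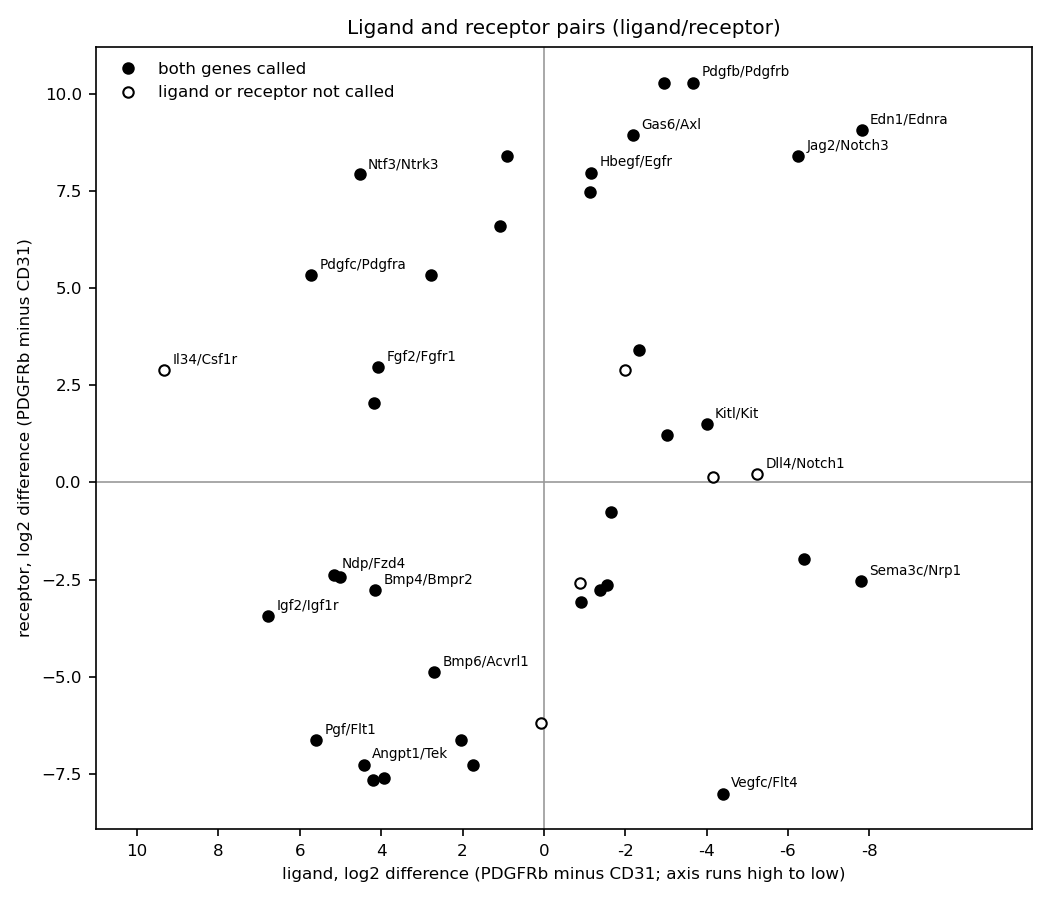
Ligand log2 difference (x axis, PDGFRb minus CD31, running from high to low) against receptor log2 difference (y axis) for the pairs in which both genes were tested. Filled points are pairs with both genes called; the upper right holds the 10 pairs with the ligand higher in the CD31 sort and the receptor higher in the PDGFRb sort, 2 of which have the gate gene Pdgfrb as receptor, and the lower left the 11 pairs with the reverse.

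Of the classes, matrix genes leaned most to the PDGFRb sort. Their median log2 difference was 3.91 over 185 tested genes, against 0.06 over all genes tested. That sort also had perivascular fibroblast markers, and Col1a2, Lum, Dcn and Efemp1 are on both the matrix and the fibroblast lists. The part of fibroblasts in the matrix differences was not tested. Among 33 tested collagens 29 were higher in the PDGFRb sort and 1, Col6a6, in the CD31 sort. Col4a1, a chain of the network collagen of the basement membrane, had 1339, 1109, 514, 1347 and 1318 CPM in the PDGFRb sort, against 1256, 966, 1155, 929 and 1012 CPM in the CD31 sort. Col4a1 had a log2 difference of 0.08 ± 0.24 (edgeR adjusted p = 0.8). Col4a2, its partner chain, had 660.1, 631, 248, 453 and 539.5 CPM in the PDGFRb sort, against 653, 389, 586, 473 and 502 CPM in the CD31 sort. Col4a2 had a log2 difference of -0.04 ± 0.25 (edgeR adjusted p = 0.91). The groups overlapped for both and neither passed the test, and these were the collagen genes with the highest CPM in the CD31 sort. Col4a5, a chain of another collagen IV network, had 86.7, 74.1, 24.3, 80.5 and 84.5 CPM in the PDGFRb sort, against 0, 0, 0, 0 and 0.203 CPM in the CD31 sort (edgeR adjusted p = 8.7e-08). Col5a3 had 31.3 ± 9.95 CPM in the PDGFRb sort, against 0.0101 ± 0.0227 CPM in the CD31 sort (edgeR adjusted p = 1.1e-08). Col6a1 had 64 ± 27.7 CPM in the PDGFRb sort, against 0.0565 ± 0.0988 CPM in the CD31 sort (edgeR adjusted p = 1.5e-07).

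Of 22 tested laminins and basement membrane genes, 10 were higher in the PDGFRb sort, 6 were higher in the CD31 sort and 6 were not called. The 6 higher in the CD31 sort were 27.3% of those tested, near the 23.0% of all genes tested. Lama2, the laminin chain of mural and astrocyte basement membranes, had 214, 284, 204, 293 and 294 CPM in the PDGFRb sort, against 0.108, 0, 0.0571, 0.117 and 0.863 CPM in the CD31 sort (edgeR adjusted p = 3.4e-08). Lamb1 had a log2 difference of 4.74 ± 0.37 (edgeR adjusted p = 4.6e-07), and Lamb2 did not pass the test (log2 difference 0.31 ± 0.27, edgeR adjusted p = 0.38). Hmcn1, hemicentin 1, had 2.16, 0.21, 0, 0.0462 and 3.41 CPM in the PDGFRb sort, against 306, 283, 234.1, 303 and 318 CPM in the CD31 sort (edgeR adjusted p = 1.0e-05). Lama3 had a log2 difference of -3.21 ± 0.73 (edgeR adjusted p = 0.0026), both higher in the CD31 sort. Lama2 and Lamb1 were thus higher in the PDGFRb sort and Lama3 in the CD31 sort, while Lamb2, Col4a1 and Col4a2 did not pass the test.

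Among matrix glycoproteins the 2 sorts each had an abundant member. Vtn, vitronectin, had 8487, 12273, 6500.1, 11668 and 8707 CPM in the PDGFRb sort, against 4.97, 5.67, 2.17, 4.45 and 5.89 CPM in the CD31 sort. Vtn had a log2 difference of 11 ± 0.40 (edgeR adjusted p = 1.9e-09) and was the most abundant matrix gene of the PDGFRb sort per length, at 7589 ± 1740.3 FPKM. Fn1, fibronectin, had 41.8, 54.0, 29.8, 61.8 and 89.9 CPM in the PDGFRb sort, against 2268, 1830.2, 2539, 2042 and 2265 CPM in the CD31 sort. Fn1 had a log2 difference of -5.30 ± 0.30 (edgeR adjusted p = 3.9e-08). Vwa1, a pericellular matrix protein, had a log2 difference of -4.96 ± 0.22 (edgeR adjusted p = 5.2e-09). Per length Vwa1 led these glycoproteins in the CD31 sort at 760.5 ± 132 FPKM, ahead of Fn1 at 428 ± 32.8 FPKM. Mmrn2, multimerin 2, had 1.69 ± 1.46 CPM in the PDGFRb sort, against 428 ± 60.3 CPM in the CD31 sort (edgeR adjusted p = 8.1e-08). Vitronectin was thus high in mural libraries and fibronectin in endothelial ones, without overlap. Tgfbi had 114 ± 44.5 CPM in the PDGFRb sort, against 0.0814 ± 0.0955 CPM in the CD31 sort (edgeR adjusted p = 1.4e-08). In this family 26 of 36 tested were higher in the PDGFRb sort and 5 higher in the CD31 sort.

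Proteoglycan genes gave 24 higher in the PDGFRb sort and 3 higher in the CD31 sort of 29 tested. Cspg4, which encodes the pericyte antigen NG2, had 1482, 1225, 1017, 1469 and 1503 CPM in the PDGFRb sort, against 1.03, 0.678, 0.0571, 0.41 and 4.06 CPM in the CD31 sort (edgeR adjusted p = 4.9e-07). Dcn, decorin, had 584, 611, 219.7, 425 and 687 CPM in the PDGFRb sort, against 0.216, 0.247, 0.114, 0.117 and 0.203 CPM in the CD31 sort. Dcn had a log2 difference of 11.41 ± 0.43 (edgeR adjusted p = 2.3e-09), and it is on the fibroblast list. Spock2, a testican, had 14.8, 12.7, 11.5, 10.5 and 18.8 CPM in the PDGFRb sort, against 1406, 1277, 1103, 1369.8 and 1365 CPM in the CD31 sort. Spock2 had a log2 difference of -6.58 ± 0.21 (edgeR adjusted p = 9.0e-10). The other members higher in the CD31 sort were Srgn, serglycin, with a log2 difference of -6.04 ± 0.28 (edgeR adjusted p = 7.5e-09), and Esm1, endocan, with a log2 difference of -3.05 ± 1.01 (edgeR adjusted p = 0.024). Matrix proteases and inhibitors gave 31 and 6 of 46 tested. Serping1, the C1 inhibitor, had a log2 difference of 8.71 ± 0.66 (edgeR adjusted p = 4.0e-07). Plaur, the urokinase receptor, had a log2 difference of -4.39 ± 0.33 (edgeR adjusted p = 3.4e-07).

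Integrin subunits, the receptors for this matrix, gave 11 and 3 of 19 tested. Itga7, a laminin-binding subunit, had 895, 512, 414, 565 and 658 CPM in the PDGFRb sort, against 0.973, 1.42, 0.114, 0.176 and 2.54 CPM in the CD31 sort (edgeR adjusted p = 2.5e-07). Itgb5, a vitronectin-binding subunit, had 206, 190.2, 132, 172 and 175 CPM in the PDGFRb sort, against 1.35, 2.16, 3.42, 3.46 and 2.03 CPM in the CD31 sort. Itgb5 had a log2 difference of 6.14 ± 0.27 (edgeR adjusted p = 6.2e-09). Itga6, another laminin-binding subunit, had 2.03, 2.42, 26.5, 7.85 and 13.1 CPM in the PDGFRb sort, against 518, 553, 518, 464 and 523 CPM in the CD31 sort (edgeR adjusted p = 1.5e-05). Itga5, which binds fibronectin, had a log2 difference of -2.46 ± 0.25 (edgeR adjusted p = 4.3e-06). Vtn and Itgb5 were both higher in the PDGFRb sort, and Fn1 and Itga5 both higher in the CD31 sort.

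Transport separated barrier carriers from a second set in mural libraries. Solute carriers gave 100 of 236 tested higher in the PDGFRb sort and 61 higher in the CD31 sort. The 61 were 25.9% of those tested, near the 23.0% of all genes tested. Slc2a1, the glucose transporter GLUT1, had 89.1, 86.4, 107, 149.5 and 137 CPM in the PDGFRb sort, against 7927, 5119.7, 6996, 5878 and 5536 CPM in the CD31 sort. Slc2a1 had a log2 difference of -5.79 ± 0.25 (edgeR adjusted p = 5.2e-09) and led the solute carriers of the CD31 sort per length, at 2278 ± 335 FPKM. Slc7a5, the large neutral amino acid transporter LAT1, had 6.73, 5.05, 11.7, 8.50 and 10.8 CPM in the PDGFRb sort, against 733, 708, 703, 799.8 and 966 CPM in the CD31 sort. Slc7a5 had a log2 difference of -6.51 ± 0.27 (edgeR adjusted p = 3.6e-09), and its partner chain Slc3a2 had a log2 difference of -2.05 ± 0.14 (edgeR adjusted p = 1.6e-07). Slc16a1, the lactate carrier MCT1, had a log2 difference of -6.28 ± 0.58 (edgeR adjusted p = 2.2e-06). Slc6a6, the taurine carrier, had a log2 difference of -6.35 ± 0.23 (edgeR adjusted p = 2.0e-09). Slc19a3, a thiamine carrier, had 1.37, 3.10, 0.771, 0.693 and 1.41 CPM in the PDGFRb sort, against 388, 391, 328, 416 and 372 CPM in the CD31 sort. Slc19a3 had a log2 difference of -8.01 ± 0.39 (edgeR adjusted p = 1.2e-08). Slc1a1, a glutamate carrier, had a log2 difference of -8.90 ± 0.59 (edgeR adjusted p = 1.4e-07), and the iron exporter ferroportin, Slc40a1, a log2 difference of -6.51 ± 0.41 (edgeR adjusted p = 8.7e-08).

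Mural libraries had carriers of their own. Slc6a20a, a proline and imino acid carrier, had 1101, 1362, 1284, 2171 and 1786 CPM in the PDGFRb sort, against 0.81, 1.05, 0.799, 0.82 and 0.558 CPM in the CD31 sort. Slc6a20a had a log2 difference of 10.90 ± 0.31 (edgeR adjusted p = 4.1e-10). Slc19a1, the reduced folate carrier and a relative of the thiamine carrier Slc19a3, had 1186, 1326, 894, 1566 and 1275 CPM in the PDGFRb sort, against 3.62, 3.21, 3.65, 2.46 and 3.60 CPM in the CD31 sort. Slc19a1 had a log2 difference of 8.56 ± 0.24 (edgeR adjusted p = 4.1e-10). At 681 ± 128 FPKM for Slc19a1 and 673 ± 202 FPKM for Slc6a20a these 2 overlapped in level. Thus 2 members of the SLC19 family lay in opposite sorts, without overlap in any mouse. Slc30a10, a manganese exporter, had 199.9 ± 48.2 CPM in the PDGFRb sort, against 0.0638 ± 0.0831 CPM in the CD31 sort (edgeR adjusted p = 2.5e-09). Slc6a13, the GABA and taurine carrier GAT2, had a log2 difference of 11.57 ± 0.43 (edgeR adjusted p = 2.0e-09). Slc22a6, an organic anion carrier, had 51.2, 81.9, 9.01, 57.4 and 76.3 CPM in the PDGFRb sort and no count in the CD31 sort, at least 1650.0-fold higher; both are on the perivascular fibroblast list.

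Organic anion transporting polypeptides gave 3 and 5 of 9 tested. Slco1c1, the thyroxine carrier, had 13.5, 26.6, 173, 98.6 and 112 CPM in the PDGFRb sort, against 2176, 2548, 1955, 2681 and 2335 CPM in the CD31 sort. Slco1c1 had a log2 difference of -4.78 ± 0.61 (edgeR adjusted p = 3.5e-05), and its PDGFRb values had the same order of mice as the astrocyte sums. Slco2b1 had a log2 difference of -6.72 ± 0.59 (edgeR adjusted p = 1.3e-06). Slco3a1, a prostaglandin carrier, had 218, 256, 177, 204 and 218 CPM in the PDGFRb sort, against 1.73, 2.34, 0.97, 2.46 and 5.99 CPM in the CD31 sort. Slco3a1 had a log2 difference of 6.30 ± 0.42 (edgeR adjusted p = 1.2e-07), and ran the other way. ABC transporters gave 10 and 10 of 33 tested, 30.3% each, against 28.0% and 23.0% of all genes tested. Abcg2, the breast cancer resistance protein, had 66.5, 64.8, 40.1, 59.9 and 57.6 CPM in the PDGFRb sort, against 1595, 1498, 1629.6, 1567 and 1577 CPM in the CD31 sort. Abcg2 had a log2 difference of -4.77 ± 0.18 (edgeR adjusted p = 2.0e-09). Abcc4, an organic anion pump, had a log2 difference of -5.87 ± 0.33 (edgeR adjusted p = 3.9e-08). Abcc6 had 0.683 ± 0.914 CPM in the PDGFRb sort, against 93.0 ± 18.1 CPM in the CD31 sort (edgeR adjusted p = 1.3e-05). Abcc9, the SUR2 subunit of a potassium channel rather than a pump, had 438, 662, 457, 1042 and 855 CPM in the PDGFRb sort, against 0.486, 0.37, 0.228, 0.762 and 1.12 CPM in the CD31 sort. Abcc9 had a log2 difference of 10.15 ± 0.46 (edgeR adjusted p = 7.6e-09).

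Of 37 tested potassium channel genes 25 were called higher in the PDGFRb sort and 4 higher in the CD31 sort, and of 60 tested calcium, sodium, chloride and TRP channel genes 34 and 13. The 13 were 21.7% of those tested, near the 23.0% of all genes tested. Kcne4, an auxiliary subunit, had 513, 314, 187, 506 and 440.0 CPM in the PDGFRb sort, against 0.162, 0.185, 0, 0.645 and 0.66 CPM in the CD31 sort. Kcne4 had a log2 difference of 10.16 ± 0.58 (edgeR adjusted p = 3.9e-08). Kcnmb1, the smooth muscle subunit of the calcium-activated BK channel, had 183 ± 52.5 CPM in the PDGFRb sort, against 0.229 ± 0.301 CPM in the CD31 sort (edgeR adjusted p = 9.6e-08). Kcnq1 had 0.434 ± 0.524 CPM in the PDGFRb sort, against 39.6 ± 6.58 CPM in the CD31 sort (edgeR adjusted p = 5.4e-06). Kcnj2, the inward rectifier Kir2.1 of capillary endothelium, had 4.34 ± 4.03 CPM in the PDGFRb sort, against 35 ± 7.73 CPM in the CD31 sort (edgeR adjusted p = 8.0e-04). Both were higher in the CD31 sort. Ano1, a calcium-activated chloride channel, had 685, 684, 384, 652 and 570.3 CPM in the PDGFRb sort, against 1.03, 1.91, 1.31, 0.82 and 2.54 CPM in the CD31 sort. Ano1 had a log2 difference of 8.60 ± 0.35 (edgeR adjusted p = 3.6e-09). Trpc4 had 45.1, 70.1, 54.0, 73.0 and 49.9 CPM in the PDGFRb sort, against 0.054, 0, 0, 0 and 0.102 CPM in the CD31 sort. Clic5 (log2 difference -8.72 ± 0.51, edgeR adjusted p = 4.3e-08), the mechanosensitive channel Piezo1 (log2 difference -4.76 ± 0.47, edgeR adjusted p = 4.1e-06) and Itpr3 (log2 difference -5.94 ± 0.56, edgeR adjusted p = 2.5e-06) were higher in the CD31 sort.

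Ion pump and gap junction genes were divided between the sorts. Atp1b2, the β2 chain of the sodium pump, had 1395, 1599, 1396, 1506 and 1613 CPM in the PDGFRb sort, against 3.89, 7.46, 3.08, 3.63 and 6.55 CPM in the CD31 sort (log2 difference 8.25 ± 0.31, edgeR adjusted p = 2.2e-09). Atp13a5, a P5B ATPase of pericytes, had 2016, 2665, 2064, 3616 and 2723 CPM in the PDGFRb sort, against 1.68, 0.801, 0.799, 0.879 and 0.761 CPM in the CD31 sort. Atp13a5 had a log2 difference of 11.36 ± 0.35 (edgeR adjusted p = 7.9e-10). The phospholipid flippase genes Atp8a1 (log2 difference -3.96 ± 0.67, edgeR adjusted p = 3.1e-04) and Atp10a (log2 difference -3.79 ± 0.34, edgeR adjusted p = 1.8e-06) were higher in the CD31 sort. Over 28 tested ATPase pumps 11 were higher in the PDGFRb sort and 9 higher in the CD31 sort. Gap junction gene Gja4, connexin 37, had 1254, 1275, 618, 1026 and 958 CPM in the PDGFRb sort, against 36.6, 52.0, 50.6, 54.1 and 79.3 CPM in the CD31 sort (log2 difference 4.23 ± 0.27, edgeR adjusted p = 8.0e-08). Gja5, connexin 40, had a log2 difference of -3.56 ± 0.69 (edgeR adjusted p = 8.8e-04) and was higher in the CD31 sort.

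Vesicle traffic was the transport family with more endothelial than mural calls beside the organic anion carriers. Of 31 tested, 9 were higher in the PDGFRb sort (29.0%), near the 28.0% of all genes tested. In the CD31 sort 16 were higher (51.6%), against 23.0% of all genes tested. Lsr, the tricellular junction protein angulin 1 and a lipoprotein receptor, had 10.3, 11.3, 6.89, 12.6 and 15.2 CPM in the PDGFRb sort, against 1422, 1209, 1468, 1142 and 1186 CPM in the CD31 sort. Lsr had a log2 difference of -6.83 ± 0.25 (edgeR adjusted p = 1.9e-09). Tfrc, the transferrin receptor, had 29.5, 33.4, 59.2, 32.0 and 52.2 CPM in the PDGFRb sort, against 431, 733, 595, 575 and 548 CPM in the CD31 sort. Tfrc had a log2 difference of -3.80 ± 0.24 (edgeR adjusted p = 9.4e-08). The caveolar genes were divided. Cavin2 (log2 difference -6.51 ± 0.32, edgeR adjusted p = 1.2e-08), Cav2 (log2 difference -2.83 ± 0.21, edgeR adjusted p = 3.7e-07) and Cav1 (log2 difference -1.83 ± 0.27, edgeR adjusted p = 1.2e-04) were higher in the CD31 sort. Cavin3 was higher in the PDGFRb sort (log2 difference 0.87 ± 0.28, edgeR adjusted p = 0.022), a call lost in the fit of all 6 groups (0.061), with mouse as a block (0.063) and without any 1 of 3 libraries (0.05 to 0.072), while its log2 difference was 1.43 without the 3 PDGFRb libraries high in astrocyte markers. Cavin1 did not pass the test (log2 difference 0.43 ± 0.30, edgeR adjusted p = 0.25) and passed without those 3 libraries (adjusted p = 0.036). Fcgrt, the neonatal Fc receptor, had a log2 difference of -1.66 ± 0.17 (edgeR adjusted p = 5.8e-06). Mfsd2a, the lysophospholipid carrier that holds transcytosis down, had 2.22, 14.5, 70.8, 19.5 and 22.4 CPM in the PDGFRb sort, against 814, 721, 804, 733 and 762 CPM in the CD31 sort (edgeR adjusted p = 6.9e-05). Lrp1, an endocytic receptor that clears amyloid and lipoproteins, had 841, 698, 738, 652 and 947 CPM in the PDGFRb sort, against 3.03, 2.03, 1.20, 1.82 and 4.01 CPM in the CD31 sort. Lrp1 had a log2 difference of 8.31 ± 0.34 (edgeR adjusted p = 3.6e-09). Among the PDGFRb libraries Mfsd2a and Itga6 had the same order of mice as the astrocyte sums; the part of those cells in their levels was not tested.

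**Figure D4:**
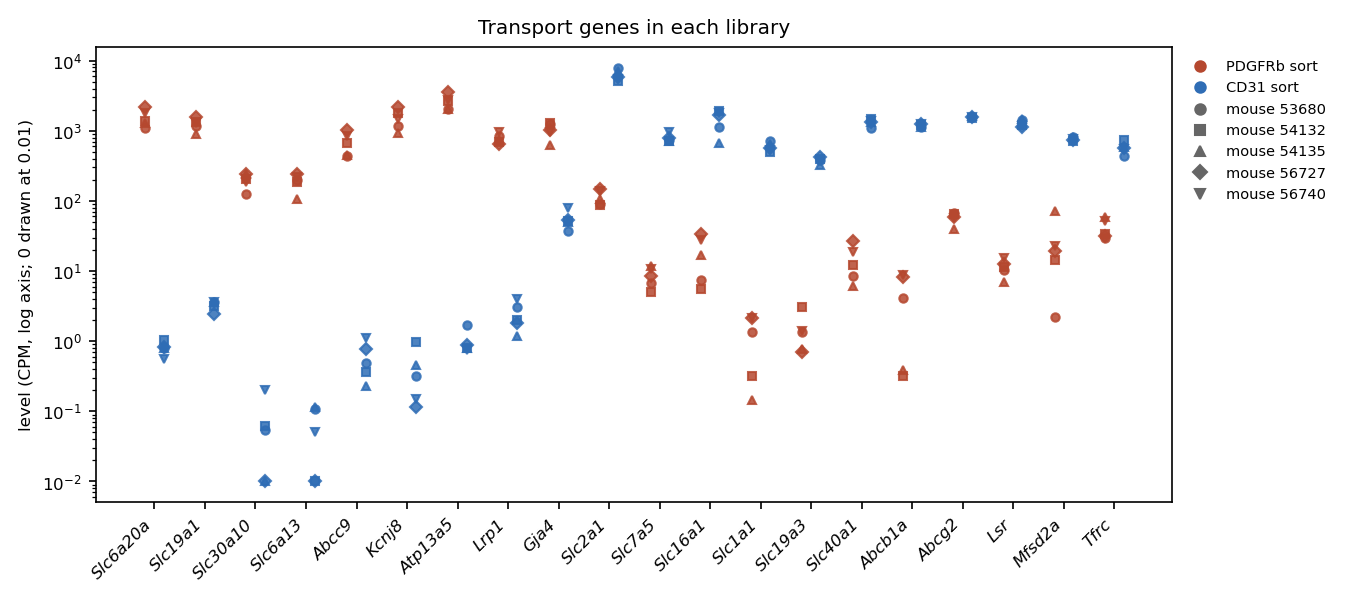
Level of 20 transport genes (x axis) in each library (y axis, CPM, log scale, 0 drawn at 0.01) of the PDGFRb sort (red, left in each column) and the CD31 sort (blue, right), with 1 symbol per mouse. The groups do not overlap for any gene drawn; Slc6a20a, Slc19a1 and Lrp1 are high in the PDGFRb sort and Slc2a1, Slc7a5 and Lsr in the CD31 sort.

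Transcription factors divided by family. KLF and GATA factors gave 3 higher in the PDGFRb sort and 10 higher in the CD31 sort of 16 tested, and ETS factors 4 and 9 of 17. Erg, an ETS factor of endothelial identity, had 0.392, 0, 0, 0.185 and 0.208 CPM in the PDGFRb sort, against 31.6, 37.0, 30.5, 40.8 and 39.5 CPM in the CD31 sort. Erg had a log2 difference of -7.84 ± 0.54 (edgeR adjusted p = 1.8e-07). Fli1 had 1.5, 2.68, 4.38, 8.82 and 7.15 CPM in the PDGFRb sort, against 273, 230.3, 251, 254 and 239.7 CPM in the CD31 sort. Fli1 had a log2 difference of -5.65 ± 0.42 (edgeR adjusted p = 3.0e-07), and Ets1 differed less (log2 difference -1.79 ± 0.15, edgeR adjusted p = 9.5e-07). Gata2 had 2.16, 0.0526, 2.27, 7.53 and 6.95 CPM in the PDGFRb sort, against 531, 333, 425, 323 and 341 CPM in the CD31 sort. Gata2 had a log2 difference of -6.67 ± 0.73 (edgeR adjusted p = 9.7e-06). The flow-induced factors Klf2 and Klf4 had a log2 difference of -2.91 ± 0.50 (edgeR adjusted p = 3.6e-04) and a log2 difference of -3.19 ± 0.44 (edgeR adjusted p = 6.4e-05). Tal1 had no count in the PDGFRb sort and 17.4, 15.7, 12.6, 15.9 and 18.8 CPM in the CD31 sort, at least 542-fold higher in the CD31 sort.

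SOX and TBX factors were all called, 12 of 19 tested higher in the PDGFRb sort and 7 higher in the CD31 sort. Sox17 had 0.261, 0.473, 0.145, 0.554 and 0.166 CPM in the PDGFRb sort, against 67.8, 42.1, 73.0, 51.6 and 54.0 CPM in the CD31 sort. Sox17 had a log2 difference of -7.47 ± 0.35 (edgeR adjusted p = 8.9e-09), and the other 2 factors of its subgroup, Sox18 and Sox7, had a log2 difference of -8.30 ± 0.69 (edgeR adjusted p = 9.0e-07) and a log2 difference of -7.07 ± 0.74 (edgeR adjusted p = 6.6e-06). Tbx18, a factor of mural progenitors in mouse, had 161, 226, 76.9, 110.3 and 119.7 CPM in the PDGFRb sort, against 0, 0, 0.0571, 0 and 0.254 CPM in the CD31 sort (edgeR adjusted p = 2.4e-08). Tbx2 had 94.4 ± 46.3 CPM in the PDGFRb sort, against 0.116 ± 0.138 CPM in the CD31 sort (edgeR adjusted p = 8.5e-08). Tbx3 differed less (log2 difference -0.88 ± 0.21, edgeR adjusted p = 0.0033) and missed the threshold in the fit of all 6 groups, at an adjusted p of 0.62. Sox11, a factor of immature neurons, had 80.6, 5.42, 496, 199.9 and 70.6 CPM in the PDGFRb sort, against 0.108, 0.123, 0.628, 0.293 and 0.508 CPM in the CD31 sort (edgeR adjusted p = 4.2e-05). It was highest in mouse 54135, whose PDGFRb library also had the highest neuron marker sum, and missed the threshold in limma-voom at an adjusted p of 0.13.

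Forkhead factors gave 7 and 8 of 22 tested. The 7 higher in the PDGFRb sort were 31.8% of those tested, near the 28.0% of all genes tested. Foxs1 had 302, 389.8, 79.6, 206 and 198 CPM in the PDGFRb sort, against 0.54, 0, 0.399, 0 and 0.305 CPM in the CD31 sort. Foxs1 had a log2 difference of 9.80 ± 0.67 (edgeR adjusted p = 1.7e-07). Foxq1, a factor of brain endothelium, had a log2 difference of -4.54 ± 0.24 (edgeR adjusted p = 2.1e-08). Foxf1 had a log2 difference of -4.76 ± 0.61 (edgeR adjusted p = 3.4e-05). Foxo1, a target of insulin signalling, had a log2 difference of -2.23 ± 0.20 (edgeR adjusted p = 1.8e-06). Foxf2, a factor known in pericytes, had 104, 136, 57.5, 96.5 and 79.6 CPM in the PDGFRb sort, against 199, 262, 209.9, 236 and 209 CPM in the CD31 sort. Foxf2 had a log2 difference of -1.24 ± 0.20 (edgeR adjusted p = 2.3e-04), so it was present in both and higher in the CD31 sort. Foxc1, a factor of vessel and meningeal development in mouse, did not pass the test (log2 difference 0.46 ± 0.30, edgeR adjusted p = 0.22), and passed at an adjusted p of 0.017 without the PDGFRb libraries of mice 54135, 56727 and 56740.

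Basic helix-loop-helix factors gave 18 and 13 of 43 tested. Heyl, a Notch target, had 742, 984, 521, 1004 and 863 CPM in the PDGFRb sort, against 1.35, 1.54, 1.08, 0.938 and 1.83 CPM in the CD31 sort. Heyl had a log2 difference of 9.24 ± 0.30 (edgeR adjusted p = 9.0e-10). Hey1, another Notch target, had 6.40, 23.9, 23.6, 22.9 and 17.4 CPM in the PDGFRb sort, against 179, 107, 146, 173 and 161 CPM in the CD31 sort. Hey1 had a log2 difference of -3.02 ± 0.31 (edgeR adjusted p = 6.0e-06). These 2 relatives were high in opposite sorts. Id1, a BMP target, had a log2 difference of -3.52 ± 0.36 (edgeR adjusted p = 4.9e-06) and was higher in the CD31 sort, and Epas1, HIF-2α, differed less (log2 difference -0.89 ± 0.19, edgeR adjusted p = 0.0015) and missed the threshold in the fit of all 6 groups, at an adjusted p of 0.20. Homeobox factors gave 21 and 6 of 37 tested, with 118 below the filter. Meis3 had 60.2 ± 7.39 CPM in the PDGFRb sort, against 0.0946 ± 0.128 CPM in the CD31 sort (edgeR adjusted p = 1.3e-08), Alx1 19.2 ± 8.12 CPM in the PDGFRb sort, against 0.0422 ± 0.0666 CPM in the CD31 sort (edgeR adjusted p = 7.7e-07). Hhex had 0.435 ± 0.404 CPM in the PDGFRb sort, against 73.5 ± 24.1 CPM in the CD31 sort (edgeR adjusted p = 1.3e-06). Nuclear receptors gave 14 and 5 of 33. Nr2f2, COUP-TFII, had 203, 232, 116, 165 and 174 CPM in the PDGFRb sort, against 13.7, 19.9, 17.6, 23.9 and 22.8 CPM in the CD31 sort (log2 difference 3.19 ± 0.21, edgeR adjusted p = 1.4e-07). Nr1h3, the liver X receptor α, had a log2 difference of 3.25 ± 0.16 (edgeR adjusted p = 1.1e-08).

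Effectors of Wnt, TGF-beta and SRF signalling gave 17 and 22 of 48 tested. Lef1, an effector of Wnt and β-catenin, had 15.2, 19.8, 30.1, 31.3 and 35.2 CPM in the PDGFRb sort, against 668, 630.4, 579, 582 and 607 CPM in the CD31 sort. Lef1 had a log2 difference of -4.54 ± 0.24 (edgeR adjusted p = 2.0e-08). Myocd, the SRF cofactor of smooth muscle, had 30.7, 27.0, 11.2, 24.0 and 32.0 CPM in the PDGFRb sort, against 0.054, 0, 0.0571, 0 and 0.102 CPM in the CD31 sort. Myocd had a log2 difference of 8.93 ± 0.54 (edgeR adjusted p = 6.4e-08). Zic1, a factor of the developing brain and meninges in mouse, had 88.4 ± 31.1 CPM in the PDGFRb sort, against 0.235 ± 0.301 CPM in the CD31 sort (edgeR adjusted p = 1.2e-07). Zic4 had 67.2 ± 10.4 CPM in the PDGFRb sort, against 0.0894 ± 0.144 CPM in the CD31 sort (edgeR adjusted p = 1.6e-08). Zic1 and Zic4 were thus both high in the PDGFRb sort.

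**Figure D5:**
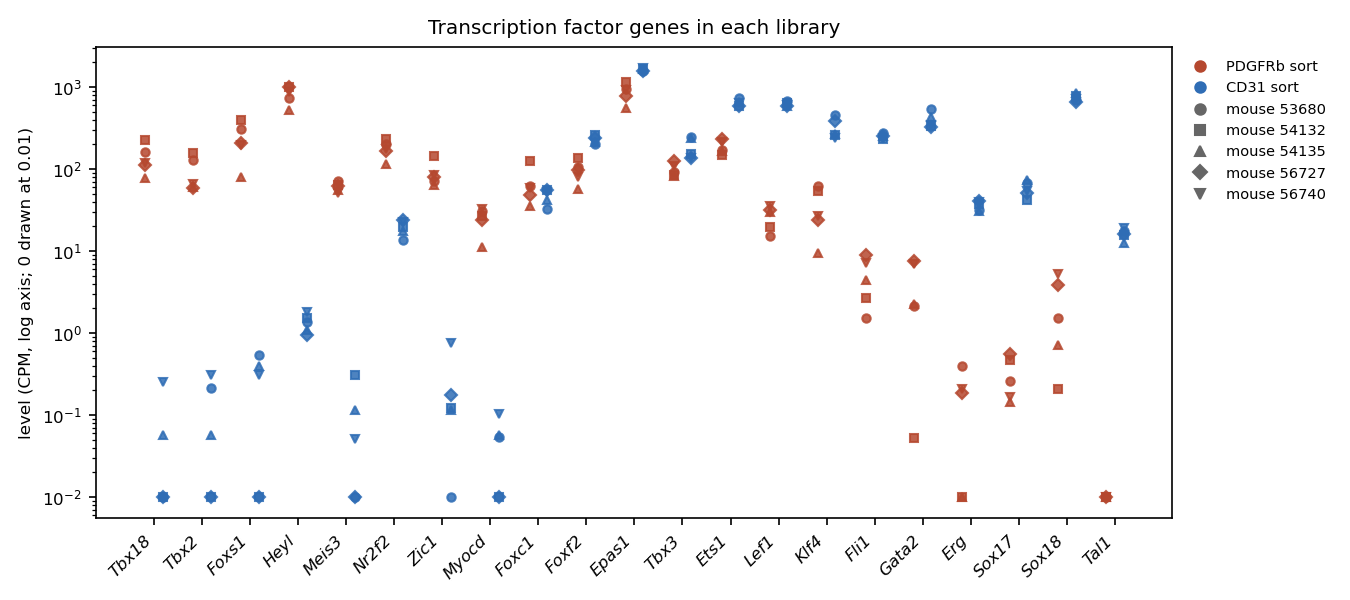
Level of 21 transcription factor genes (x axis) in each library (y axis, CPM, log scale, 0 drawn at 0.01) of the PDGFRb sort (red, left in each column) and the CD31 sort (blue, right), with 1 symbol per mouse. Tbx18, Heyl and Nr2f2 are high in the PDGFRb sort, Erg, Sox17 and Sox18 in the CD31 sort, and Foxc1 overlaps between them.

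Of 19 tested cadherins and claudins 11 were higher in the PDGFRb sort and 6 higher in the CD31 sort. Cdh5, VE-cadherin, had 4.90, 5.68, 1.40, 1.48 and 4.16 CPM in the PDGFRb sort, against 235, 301, 233, 322 and 309 CPM in the CD31 sort. Cdh5 had a log2 difference of -6.32 ± 0.41 (edgeR adjusted p = 1.1e-07). Cdh11, a cadherin of mesenchymal cells, had 74.0, 61.0, 56.8, 123 and 99.8 CPM in the PDGFRb sort, against 0.973, 1.23, 1.03, 0.527 and 1.83 CPM in the CD31 sort. Cdh11 had a log2 difference of 6.20 ± 0.35 (edgeR adjusted p = 3.3e-08). Cdh2, N-cadherin, had a log2 difference of 2.00 ± 0.28 (edgeR adjusted p = 7.4e-05), at 1.15 without the PDGFRb libraries of mice 54135, 56727 and 56740. Contraction genes gave 16 and 1 of 19 tested. Myl9 had 8724, 9359.7, 2445, 4628 and 5753 CPM in the PDGFRb sort, against 10.2, 16.5, 4.51, 16.1 and 25.2 CPM in the CD31 sort. Myl9 had a log2 difference of 8.74 ± 0.61 (edgeR adjusted p = 1.7e-07), with the PDGFRb library of mouse 54135 the lowest, and Casq2, a calcium store protein of muscle, had a log2 difference of 9.56 ± 0.54 (edgeR adjusted p = 3.6e-08). Pgm5 was the single member higher in the CD31 sort (log2 difference -2.66 ± 0.32, edgeR adjusted p = 2.0e-05).

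A group of genes, put together here after their values were seen and called higher in the PDGFRb sort, had its highest mural levels in mice 54135, 56727 and 56740, the libraries with the highest astrocyte sums. Aqp4, the astrocyte water channel, had 6.27, 13.2, 91.8, 85.3 and 118 CPM in the PDGFRb sort, against 0.54, 2.47, 0.0571, 1.76 and 0.558 CPM in the CD31 sort (log2 difference 5.88 ± 0.95, edgeR adjusted p = 2.3e-04), and the log2 difference without those 3 libraries was 3.18. Ednrb, the endothelin B receptor, had 16.3, 30.9, 113, 68.8 and 104 CPM in the PDGFRb sort, against 4.92, 7.33, 3.71, 6.86 and 8.73 CPM in the CD31 sort. Ednrb had a log2 difference of 3.40 ± 0.50 (edgeR adjusted p = 1.1e-04), at 1.91 without them. Dkk3 had a log2 difference of 5.89 ± 0.60 (edgeR adjusted p = 5.1e-06) and 4.49 without them, Cldn10 a log2 difference of 8.23 ± 0.91 (edgeR adjusted p = 9.7e-06) and 6.64, and Gjb6, connexin 30, a log2 difference of 7.84 ± 0.73 (edgeR adjusted p = 2.4e-06) and 6.80. Fgfr2 had a log2 difference of 4.36 ± 0.66 (edgeR adjusted p = 1.3e-04) and 3.35, Etv5 a log2 difference of 2.61 ± 0.30 (edgeR adjusted p = 1.3e-05) and 1.84, and Rspo3 a log2 difference of 4.17 ± 0.74 (edgeR adjusted p = 4.8e-04) and 2.29. The genes were grouped by their levels in those 3 libraries, so that a smaller difference without them follows from the choice. For genes higher in the CD31 sort the same step took the log2 difference further from 0 for S1pr1 (-4.79), Slco1c1 (-6.86), Sox18 (-9.82), Lama3 (-5.49), Gata2 (-8.55), Fli1 (-6.87), Atp8a1 (-5.39), Slc16a1 (-7.78), Edn1 (-8.94), Nos3 (-8.67), Il2rg (-6.78), Kdr (-8.46), Slco2b1 (-7.40), Slc1a1 (-9.50), Lef1 (-5.13), Sema3c (-10.80, against -7.79 with all libraries), Itga6 (-7.85, against -5.63), Mfsd2a (-6.50, against -4.89), Kcnj2 (-4.84, against -3.0), Esm1 (-4.29), Mmrn2 (-9.25, against -7.94), Adgrl4 (-9.27, against -8.49) and Dll1 (-2.16, against -1.54). It brought the log2 difference nearer to 0 for Cdh5 (-5.72), Efna1 (-3.51), Id1 (-2.88), Klf2 (-2.05), Klf4 (-2.47), Slc19a3 (-7.37) and Flt4 (-7.20, against -8.01). Abcc6, Col6a6, Ret, Sema7a, Sox7 and Tnfsf10 had 3 counts or fewer over the PDGFRb libraries of mice 53680 and 54132, and no value without the other 3 is given for them. Among genes higher in the PDGFRb sort, Sox11 (6.98, against 8.96) came nearer to 0, and Ntf3 (5.16, against 4.53), Tbx2 (10.12, against 9.51) and Il6 (5.74, against 5.01) moved further from it. With those 3 libraries left out, edgeR called 7333 genes, 6331 of them among the 7637 calls from all 10 libraries, and 14 of those 7637 had the opposite sign.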

How the data were processed

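Reads were aligned to mm10 with STAR 2.7.9a and quantified with RSEM 1.3.3, per the submitters' processing notes, which also name edgeR 3.36.0 and limma 3.50.3; the annotation release is not given in the sources used here. Per the labels' protocols, libraries were made from sorted cells with a SMART-Seq HT and Nextera XT kit, which marks neither strand nor molecule, so overlapping genes share reads and PCR copies are counted. The authors deposited expected counts per gene, of which 5.25% were not whole, and FPKM in separate tables for the 2 sorts. Expected counts were rounded. FPKM was used only to order levels within a sort.

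Libraries were grouped by title. The 10 libraries were fitted with edgeR 4.0.16 (R 4.3.3; TMM, filterByExpr, robust quasi-likelihood test) with Benjamini-Hochberg adjustment over 14975 of 53647 genes, and calls were made at an adjusted p under 0.05. On simulated data this step called 44% of genes changed 2-fold, 96% of those changed 16-fold and 0.0609% of unchanged genes, of 14975. The simulation left 14775 genes unchanged, whereas 51.0% of genes were called in the real data, so its rates may not carry over. Alternatives used limma 3.58.1 and DESeq2 1.42.0, other scalings, filters, samples and covariates. Both sorts of a mouse come from the same animal, so the numbers pair the samples; the correlation of their deviations from the group means was 0.151, 0.057, 0.021, -0.017 and 0.065 over the 5 mice. The closest pair of libraries differed by more than sampling noise (chi-square of 16.4 per degree of freedom). The dates in the column headers are not explained and were used only as a covariate.

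Members and gene lists were chosen with earlier results of these data known. Genes were named by rule: all genes of the pairs, and per list up to 3 called members per direction with the largest absolute log2 difference among those with at least 10 CPM on average in the higher sort and no overlap. A further 40 genes, and Adgra2, Col6a6, Esm1, Lrp5, Lrp6, Tgfbr1, Tie1 and Tspan12, were named for a known role or a high level after their values were seen. Some genes that the rule names are not reported here. The authors also deposited log2 normalized counts in a table per sort, with the scaling not stated; they were not used, and all log2 differences given come from the edgeR fit. Folds against a sort with no counts use a floor of 3 counts over the group and cover counting error only. Promoter sequences are from RefSeq (GRCm38.p6).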

Additional observations from a re-analysis of the deposited data

Results flagged for a closer look

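In 20 of 323 groups of 5 libraries tested (Dixon's ratio above 0.71), 1 library stood far from the other 4; chance flags about 1 group in 20. In the PDGFRb sort the high libraries were at 1262 CPM for the neuron marker sum (next 343 CPM), 65.5 CPM for the epithelial marker sum (next 15.4), 31.8 CPM for Angpt4 (12.6), 96.9 CPM for Cacng5 (23.1), 28.0 CPM for Foxd1 (14.8), 39.5 CPM for Fzd2 (25.6), 21.6 CPM for Il2ra (10.7) and 142 CPM for Zic1 (85.1). The low libraries of that sort were at 514 CPM for Col4a1 (next 1109), 24.3 CPM for Col4a5 (74.1), 315 CPM for Il34 (366), 11 CPM for Kcng1 (23.3), 11.4 CPM for Kit (22.1), 2.94 CPM for Ndp (16), 9.30 CPM for Rarb (18.7) and 54.0 CPM for Sema5a (116). In the CD31 sort the high libraries were at 20.7 CPM for Dll1 (next 11.6), 564 CPM for Fzd4 (337), 533 CPM for Mmrn2 (415) and 44.3 CPM for Ret (23.2).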

How the results depend on the processing

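The edgeR counts became 2679 higher in the PDGFRb sort and 1667 higher in the CD31 sort with all 6 groups in the fit, 2076 genes higher in the CD31 sort had an absolute log2 difference of at least 1, and without a filter 3101 genes were at least 8-fold higher in the PDGFRb sort. With the cell type label deciding the sorts of mouse 54135, every such count, over all genes and per class, was 0. Leaving out 1 library or 1 mouse gave 3640 to 4404 and 2859 to 3633 genes, and 1799 to 1885 and 772 to 813 at 8-fold. With the replicate block 7244 genes were called, against 7637 without it, and among the genes named the block ended the calls of Met and Cavin3 only. Other counts of calls were 7613 with RLE size factors, 7592 with upper-quartile scaling (median log2 difference 0.17, against 0.06), 7295 with the 1 CPM filter, 7961 in DESeq2 and 7676 in limma-voom. The date covariate (7640 calls) and the omission of 3 PDGFRb libraries (7333 calls) were chosen after seeing the data. Apln changed sign in limma-voom (-0.53), with the replicate block (-0.62), by the cell type label (-0.77), with date (-0.50) and without the 3 PDGFRb libraries (-2.21), and ran from -0.67 to 0.34 with 1 library or mouse left out. Col4a2 changed sign with upper-quartile scaling (0.08), 6 groups (0.02), the cell type label (0.34) and without the 3 libraries (0.31), and ran from -0.22 to 0.17; Col4a1 ran from -0.04 to 0.29. By the cell type label Agt (-0.29), Cacng5 (-1.09), Pou3f4 (-0.30) and Sox11 (-0.48) also changed sign. The cell type label exchanges the 2 libraries of mouse 54135. The library titled PDGFRb had 15183 CPM of pericyte markers and 770 CPM of endothelial markers, and the library titled CD31 had 16.1 and 24920 CPM. Each of these marker lists holds a gene of the gate. The cause of the changes in count and sign was not tested.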
